A study of Mus musculus with 4 samples.

Results

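The 37 genes described here make cholesterol and fatty acids or control that synthesis. They were taken by symbol from the 31053 genes in the deposited matrices, and 37 of 37 were found. The sterol branch has 17 members and the fatty acid branch 20, and the 2 branches are kept apart throughout. Cells of the stromal vascular fraction (SVF) came from the fourth inguinal white fat depot (iWAT) of C57BL/6 mice aged 8 weeks and were sequenced with 10x Chromium 3′ v3 chemistry. The cold group had spent 24 h at 4 °C (2 libraries) and the room temperature (RT) group the same 24 h at RT (2 libraries); both were otherwise of the same strain and age. The labels name neither the animals nor the pooling behind a library, so p-values measure the spread between libraries, which may be technical. The fraction is what remains after collagenase digestion and loss of the floating mature adipocytes. The adipocyte marker Adipoq had at most 7 UMIs (unique molecular identifiers, the counts) in any library of a cell class, apart from pericytes and vascular endothelium.

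Cholesterol is built from acetyl-CoA through mevalonate, isoprenoids, squalene and lanosterol, and the genes of the route are switched on together by the transcription factor SREBP-2 when membrane sterol is low. Fatty acids are built from the same acetyl-CoA by acetyl-CoA carboxylase and fatty acid synthase, then elongated, desaturated and joined to glycerol, mainly under SREBP-1c, LXR and ChREBP. In white and brown fat exposed to cold, synthesis and breakdown of lipid are both known to be active, in adipocytes above all. In the mammary epithelium that runs through this depot, fatty acid synthesis is known for making milk fat.

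Cold libraries contained 4840 and 3871 barcodes and RT libraries 6339 and 4168, and their UMI totals ran between 35198164 and 55160902. After filters 15197 cells in 42 clusters remained, and 14 cell classes could be named from marker genes. A class name means cells that resemble the type by its markers. Of these classes 11 had at least 20 cells in every library and were tested. The basal (193 cells), Schwann (97) and neutrophil (94) classes were not. Any pair of libraries shared 5 to 10 barcode sequences. Levels are CPM, the UMIs of a gene per 1000000 UMIs of that class in that library, with replicate 1 before replicate 2. Because only the 3′ end is counted, CPM is not scaled by gene length, and levels are compared for 1 gene across classes and not between genes. Change is the log2 fold change of cold over RT from edgeR's quasi-likelihood test, and a gene is called at an adjusted p under 0.05 over all genes tested in the class. The summed sterol level of RT replicate 2 was above that of RT replicate 1 in 9 of 11 tested classes. The difference was small in B cells (322 against 316 CPM) and endothelium (266 against 261 CPM), and T and NK cells went the other way. Both cold libraries were below both RT libraries in 6 of the 11 classes and above them in 0. For the summed fatty acid branch this held in 7 and 2 classes. Cluster make-up also differed between the groups in the T cell, fibroblast and luminal hormone-sensing classes, and is given beside those results.

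Schwann cells, the glia of peripheral nerves and builders of cholesterol-rich myelin, had the highest mean level of 15 of the 17 sterol members among the 14 classes. Of these 15, only Hmgcs1, Lss, Cyp51, Msmo1 and Nsdhl had Schwann libraries that did not overlap those of the next class. Hmgcs1, which makes HMG-CoA at the entry to the mevalonate route, had 551 and 713 CPM in cold Schwann cells, against 368 and 204 CPM at RT. That is 13.1 times the mean of the next class, the pericytes, at 35.2 CPM. Msmo1, which takes methyl groups off lanosterol-derived sterols, had 372 and 588 CPM in cold, against 353 and 102 CPM at RT. Its next highest class was B cells with a mean of 22.4 CPM. Idi1, the isopentenyl diphosphate isomerase, had 223 and 232 CPM in cold Schwann cells, against 103 and 40.8 CPM at RT. The counts behind these values are small, since Hmgcs1 had 37 and 40 UMIs in cold and 25 and 10 at RT. The summed sterol branch reached 2188 and 2656 CPM in cold Schwann cells and 1664 and 856 CPM at RT. The ranges of cold and RT Schwann libraries did not overlap for this sum, but the class had too few cells in 1 library for a test.

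The other early sterol members were lower. Mvk (mevalonate kinase), Mvd (mevalonate diphosphate decarboxylase), Fdps (farnesyl diphosphate synthase) and Fdft1 (squalene synthase) peaked in Schwann cells, at means of 28.1, 14.9, 86.7 and 65.9 CPM. Their Schwann libraries overlapped those of the next class, and Mvd ranged from 0 to 59.5 CPM among them. Outside Schwann cells, Fdps and Fdft1 were highest in luminal hormone-sensing cells, with means of 37.4 and 38.3 CPM. The annotation places a protein-coding gene across Fdps on the same strand, so the Fdps counts are uncertain. Sqle (squalene epoxidase, a slow step of the route) was the sterol member highest in hormone-sensing cells, with a mean of 32.7 CPM and a range of 21.4 to 44.5 CPM that overlapped the Schwann libraries. The late steps, Lss (lanosterol synthase), Cyp51 (lanosterol demethylase), Nsdhl, Hsd17b7, Sc5d and Dhcr7, peaked in Schwann cells at 24.4, 85.8, 53.9, 34.8, 141 and 28.1 CPM. The regulators Srebf2 (SREBP-2 itself) and Insig1 (which holds SREBP in the endoplasmic reticulum) peaked there too, at 123 and 131 CPM. Insig1 was next highest in macrophages at 73.7 CPM. Stard4, a carrier of cholesterol between membranes, was highest in vascular endothelium at 48.5 CPM, with libraries that overlapped those of Schwann cells (33.3 CPM).

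The fatty acid members were spread over more classes. Scd2, a stearoyl-CoA desaturase, again was highest in Schwann cells, with 1429 and 963 CPM in cold, against 1487 and 1509 CPM at RT. The next class, the fibroblasts, had a mean of 131 CPM. Its paralog Scd1 was highest in B cells, with 326 and 322 CPM in cold, against 416 and 367 CPM at RT. Alveolar progenitors came next at a mean of 241 CPM, with libraries that overlapped those of B cells. Scd1 was found in 59.1% of B cells (exact 95% interval 56.2 to 62.0%, median 2333.5 UMIs per cell) and in 2.47% of T cells (1.88 to 3.18%), whose cells were deeper at a median of 4963 UMIs. Such intervals cover counting error only. Scd1 and Scd2 are paralogs, and whether reads were split between them was not tested.

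Thrsp (Spot 14, a lipogenic regulator) was highest in vascular endothelium, with 588 and 494 CPM in cold, against 645 and 464 CPM at RT. It was found in 73.4% of endothelial cells (69.7 to 76.8%) and in 0.298% of T cells (0.120 to 0.613%), at median depths of 5216.5 and 4963 UMIs. Acacb, the acetyl-CoA carboxylase at mitochondria, was also highest there, with 43.4 and 45.1 CPM in cold, against 43.2 and 36.1 CPM at RT. Luminal alveolar progenitors, the cells that make milk in lactation, had the highest means of Srebf1 (SREBP-1, 107 CPM), Me1 (malic enzyme, a source of NADPH, 65.1 CPM) and Fads2 (delta-6 desaturase, 19.6 CPM). Hormone-sensing cells had the highest Dgat2 (the acyltransferase of lipid droplet triglyceride, 120 CPM), Agpat2 (53.7 CPM) and Gpam (2.46 CPM), which add earlier acyl chains to glycerol. The next classes were close for Agpat2 (ILC2, 51.2 CPM) and Gpam (pericytes, 2.33 CPM). Libraries of the first and second class overlapped for Dgat2, Agpat2, Gpam, Srebf1, Me1 and Thrsp, but not for Fads2 or Acacb. Dgat1, the other triglyceride-forming acyltransferase, was highest in neutrophils.

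Of the remaining members, Elovl6 stood clear in Schwann cells, and the libraries of the first and second class overlapped for the others. Acly, which makes cytosolic acetyl-CoA from citrate, had 93.9 CPM in macrophages and 91.2 CPM in endothelium, with overlapping libraries. Elovl5, an elongase of polyunsaturated fatty acids, had 162 CPM in innate lymphoid type 2 cells (ILC2) and 125 CPM in endothelium, also overlapping. Lpin1, a phosphatidate phosphatase, had 100.3 CPM in NK cells and 96.7 CPM in Schwann cells. Fasn (fatty acid synthase), Acaca (the cytosolic acetyl-CoA carboxylase), Elovl6 (elongase of saturated chains), Fads1 (delta-5 desaturase) and Acss2 (acetyl-CoA synthetase) peaked in Schwann cells, at 132, 37.5, 93.0, 162 and 63.7 CPM. Mlxipl (ChREBP) stayed under 3 CPM as a class mean everywhere. The heatmap of levels shows the broad fatty acid pattern beside the Schwann column of the sterol branch.

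**Figure D1:**
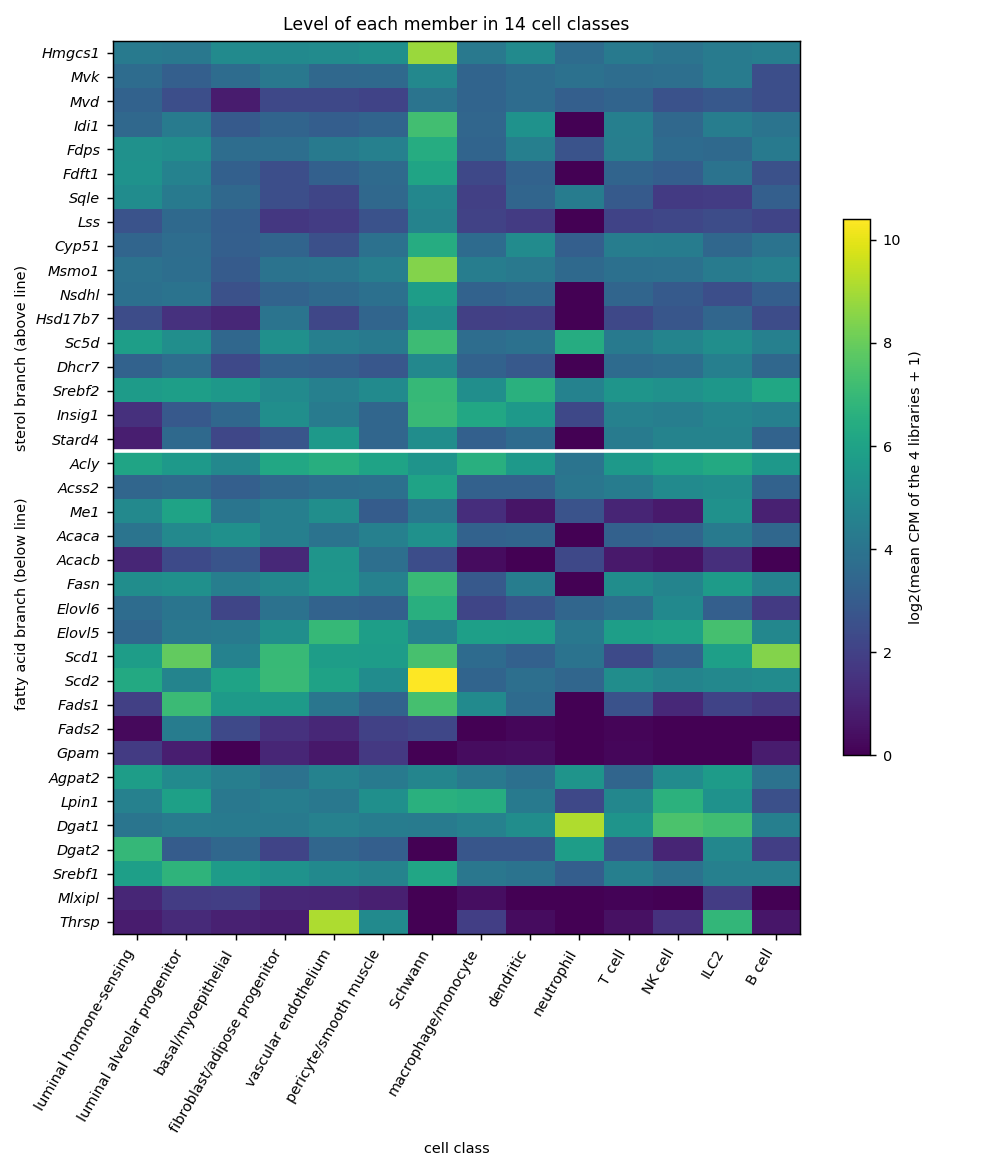
Level of the 37 members (rows; sterol branch above the white line) in 14 cell classes (columns), as log2(mean CPM of the 4 libraries + 1). The Schwann column is brightest for 15 of 17 sterol rows. Thrsp stands out in vascular endothelium and Dgat1 in neutrophils, and Scd1 has its highest mean in B cells.

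Few members changed after 24 h of cold, and each one called fell. Of the 37 members 36 passed the low-count filter in at least 1 tested class (Fads2 in none), which gave 230 pairs of member and class. Of these pairs 5 were called: Dgat1, Cyp51 and Elovl5 in T cells, Fads1 in fibroblasts and Fasn in luminal alveolar progenitors. Among all genes tested, edgeR called 2.71% in T cells (0.742% higher and 1.96% lower in cold), 2.73% in fibroblasts (1.1% higher and 1.63% lower) and 3.42% in alveolar progenitors (2.27% higher and 1.15% lower). It called 1.45% in NK cells (0.8% higher and 0.649% lower), 0.495% in endothelium, 0.445% in macrophages and 0.283% in dendritic cells. It called 0.107% in B cells, of which 0.0306% of all genes were lower, 0.00824% in hormone-sensing cells and 0% in ILC2 and pericytes. Members of a class share its 4 libraries, and classes share them too, so the 230 pairs are not independent. The plot of fold changes shows the sterol genes of fibroblasts, dendritic cells and B cells shifted down. The fatty acid genes of dendritic cells were as low, with a median of -0.54 over 12 members. Fatty acid medians were -0.38 in NK cells (8 members), -0.30 in fibroblasts (15) and -0.82 in ILC2 (2). They were above 0 in endothelium (0.20 over 17) and pericytes (0.64 over 3), and from -0.18 to -0.10 in the other classes. The B cell sterol median was -0.46 over 8 members. Few sterol members were tested in alveolar progenitors (median -0.57 over 4) and NK cells (-0.74 over 2).

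**Figure D2:**
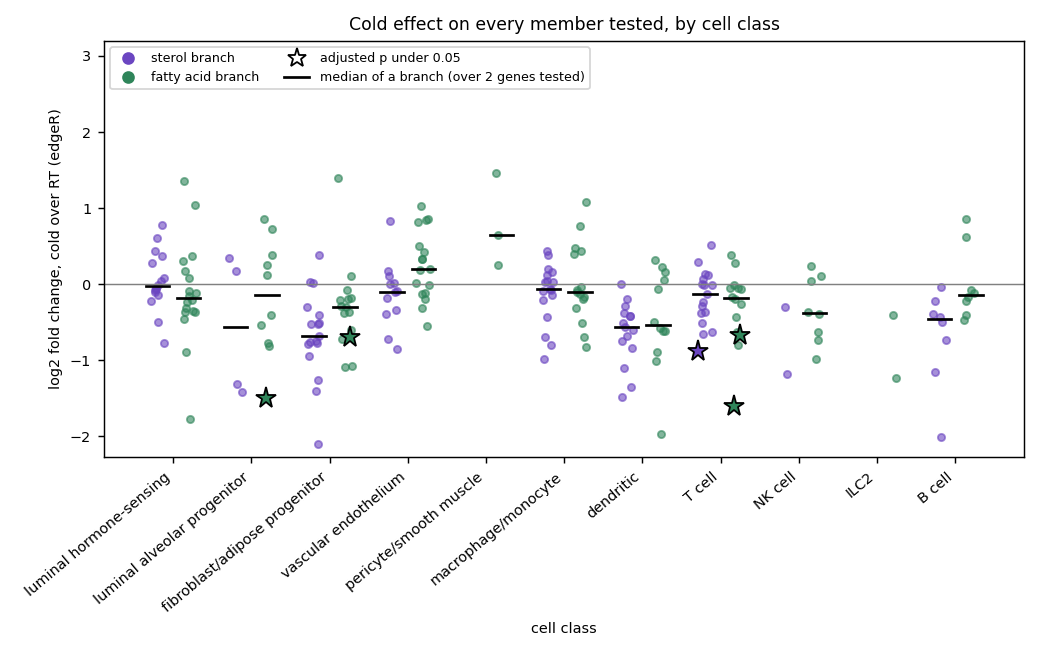
The log2 fold change, cold over RT, of each member tested (points; violet, sterol branch; green, fatty acid branch) in 11 cell classes, with the branch median as a bar and called members as stars. The 5 stars lie below 0, and the fibroblast sterol bar lies at -0.68.

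The promoters of Cyp51, Elovl5 and Fasn, called lower in cold, are shown with that of Hmgcs1, the member chosen afterwards because its window holds the sterol element. Each runs from 250 bases before to 50 after the RefSeq start on GRCm38.p6, in the direction of the gene. Capitals mark the CCAAT box (CCAAT, or ATTGG on the other strand), to which the SREBP partner NF-Y binds, and in Hmgcs1 also the sterol regulatory element TCACNCCAC.
Cyp51, chr5:4104648-4104947, minus strand: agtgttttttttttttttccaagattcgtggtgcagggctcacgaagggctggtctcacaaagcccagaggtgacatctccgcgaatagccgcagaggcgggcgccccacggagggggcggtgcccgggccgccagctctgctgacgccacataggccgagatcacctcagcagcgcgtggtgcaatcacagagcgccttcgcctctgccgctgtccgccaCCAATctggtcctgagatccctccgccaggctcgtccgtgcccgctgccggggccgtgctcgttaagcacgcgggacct
Elovl5, chr9:77917115-77917414, plus strand: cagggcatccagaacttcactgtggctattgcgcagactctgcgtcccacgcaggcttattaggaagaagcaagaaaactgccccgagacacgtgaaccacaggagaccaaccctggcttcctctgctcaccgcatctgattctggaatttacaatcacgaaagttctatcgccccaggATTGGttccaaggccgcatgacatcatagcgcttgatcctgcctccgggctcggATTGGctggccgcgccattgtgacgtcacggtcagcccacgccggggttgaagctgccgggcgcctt
Fasn, chr11:120824498-120824797, minus strand: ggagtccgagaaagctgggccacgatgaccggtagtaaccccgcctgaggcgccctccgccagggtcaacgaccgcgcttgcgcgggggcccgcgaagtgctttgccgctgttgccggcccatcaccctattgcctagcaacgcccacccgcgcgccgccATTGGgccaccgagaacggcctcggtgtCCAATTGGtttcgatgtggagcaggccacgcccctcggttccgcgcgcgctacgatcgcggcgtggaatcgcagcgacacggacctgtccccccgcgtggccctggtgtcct
Hmgcs1, chr13:119690101-119690400, plus strand: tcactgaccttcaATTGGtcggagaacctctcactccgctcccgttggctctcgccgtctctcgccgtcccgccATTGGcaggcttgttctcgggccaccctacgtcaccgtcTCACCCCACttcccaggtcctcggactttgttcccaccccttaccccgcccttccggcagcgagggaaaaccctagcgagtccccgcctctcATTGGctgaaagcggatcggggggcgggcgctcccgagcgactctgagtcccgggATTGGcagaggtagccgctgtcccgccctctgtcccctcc
Counted from the start, the CCAAT box began at -29 in Cyp51 and at -71 and -17 in Elovl5. In Fasn it began at -90, -62 and -59, of which the last 2 overlap, and in Hmgcs1 at -237, -176, -45 and 10. The Hmgcs1 sterol element ran from -137 to -129. Both strands were searched in the 28 members that had an entry. CCAAT stood in 13 of 13 sterol and 10 of 15 fatty acid members, against 41.1% of 27025 genes, and the sterol element in Hmgcs1 and Mlxipl, against 1.44% of genes. A match is a description of the letters and not a binding site.

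In T cells the acyltransferase Dgat1 fell, and the elongase Elovl5 and the demethylase Cyp51 fell with it. Dgat1 (chr15, 76502015 to 76511953, minus strand, GRCm38) had 15.6 and 27.4 CPM in cold T cells, against 51.7 and 67.6 CPM at RT. The means were 21.5 ± 8.35 CPM in cold and 59.7 ± 11.2 CPM at RT (SD, n = 2 each), a log2 fold change of -1.60 (SE 0.23, edgeR adjusted p = 0.00921). Both cold libraries lay below both RT libraries. Elovl5 (chr9, 77917364 to 77984519, plus strand) had 39.1 and 50.6 CPM in cold, against 65.6 and 68.2 CPM at RT. Its log2 fold change was -0.67 (SE 0.14, edgeR adjusted p = 0.0398), with no overlap. Cyp51 (chr5, 4081145 to 4104746, minus strand) had 13.6 and 16.2 CPM in cold, against 28.3 and 23.7 CPM at RT. Its log2 fold change was -0.88 (SE 0.19, edgeR adjusted p = 0.0425), again with no overlap.

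The make-up of the T cell class differed between the groups. The cluster led by Nkg7, Cd8b1 and Ccl5 held 47.3 and 42.7% of cold T cells, against 10.7 and 2.16% at RT, where the cluster led by Trbc2 and Dapl1 held 70.6 and 62.0%. Within the Trbc2-led cluster Dgat1 had 26.3 and 48.5 CPM in cold, against 51.7 and 55.3 CPM at RT. In the cluster led by Tnfrsf4 and Ctla4 it had 35.5 and 77.0 CPM in cold, against 127 and 116 CPM at RT. In the Ccl5-led cluster it had 7.12 and 14.9 CPM in cold, against 18.7 and 14.8 CPM at RT, the RT values resting on 4 UMIs and 1 UMI. In the Pclaf-led cluster it had 11 and 12.7 CPM in cold, against 18.5 and 62.9 CPM at RT. Dgat1 was thus lower in both cold libraries within the Trbc2-led, Tnfrsf4-led and Pclaf-led clusters, and the groups overlapped in the Ccl5-led one. Without the Ccl5-led cluster the Dgat1 log2 fold change was -1.33 (edgeR adjusted p = 0.00293) and that of Elovl5 -0.67 (adjusted p = 0.0196), while Cyp51 was no longer called at -0.50 and the sterol median was -0.0058. Cyp51 was also not called without RT replicate 1 or at clustering resolution 2, DESeq2 gave it no adjusted p, and Elovl5 was not called without RT replicate 1, without RT replicate 2 or with DESeq2.

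Of the other sterol members in T cells, 16 were tested and not called. The branch median was -0.12, against 0.01 over all genes, with 12 of 17 below 0, and 4 of 17 had an unadjusted p under 0.05, against 20.2% of all genes. The libraries did not overlap for 8 of 17 sterol members, against 52.2% of all genes. The shares by unadjusted p and by non-overlap are near the background of the class, while 49.3% of all genes were below 0. Beside Cyp51 the 4 were the regulators Insig1 (20.8 and 15.0 CPM in cold, against 30.7 and 24.6 CPM at RT) and Srebf2 (35.2 and 35.9 CPM, against 56.0 and 41.5 CPM at RT), and the carrier Stard4 (15.3 and 15.7 CPM, against 19.6 and 25.2 CPM at RT). Their edgeR adjusted p-values lay between 0.122 and 0.140. Hmgcs1 overlapped between the groups, with 17.2 and 16.4 CPM in cold, against 23.5 and 15.3 CPM at RT. Of 14 fatty acid members tested in T cells 12 were below 0, at a median of -0.18. Of these 14, 2 were called, against 2.71% of all genes, and 7 did not overlap, against 52.2%.

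**Figure D3:**
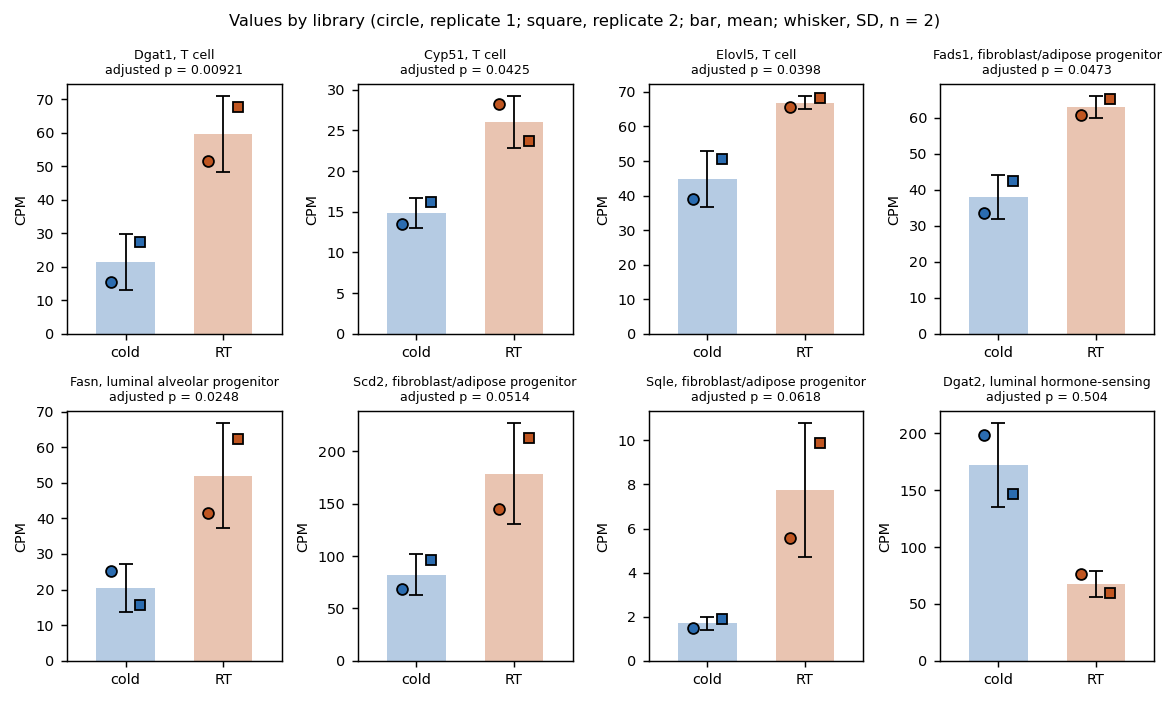
CPM by library for the 5 called pairs of member and class and for Scd2 and Sqle in fibroblasts and Dgat2 in hormone-sensing cells, which did not pass the threshold; bars are means and whiskers the SD (n = 2), cold left of RT. In each panel but the last, both cold libraries lie below both RT libraries; for Dgat2 they lie above.

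Both cold libraries lay under both RT libraries for Dgat1 in 9 of the 9 tested classes where it passed the filter. Non-overlap in either direction held for 35.9% (B cells) to 52.2% (T cells) of all genes in those classes, and the classes share the same 4 libraries. Stard4 was lower without overlap in 5 of 5 such classes, Insig1 in 7 of 8 and Srebf2 in 6 of 9. Srebf1 was higher without overlap in 5 of 8. Dgat1 was called in T cells alone. The innate lymphocytes had the next highest levels. ILC2 had 101 and 70.7 CPM in cold, against 188 and 221 CPM at RT, a log2 fold change of -1.23 (SE 0.34, edgeR adjusted p = 0.214). NK cells had 85.1 and 167 CPM in cold, against 231 and 218 CPM at RT, a log2 fold change of -0.73 (SE 0.24, edgeR adjusted p = 0.152; called at -1.35 without cold replicate 2).

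Dendritic cells had 19.1 and 26.4 CPM of Dgat1 in cold, against 42.3 and 43.5 CPM at RT, and macrophages 17.6 and 20.6 CPM in cold, against 26.6 and 27 CPM at RT. Hormone-sensing cells had 12.5 and 14.9 CPM in cold, against 15.4 and 20 CPM at RT, and fibroblasts 13.6 and 19.4 CPM in cold, against 20.4 and 20.3 CPM at RT. B cells had 18.3 and 17.5 CPM in cold, against 28.7 and 20.7 CPM at RT. Endothelium had the smallest difference, with 21.3 and 21.8 CPM in cold, against 25.2 and 22.6 CPM at RT (log2 fold change -0.12). Neutrophils, which were not tested, had 439 and 533 CPM in cold, against 724 and 583 CPM at RT, and 45.7% of them held a Dgat1 UMI (35.4 to 56.3%).

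Dgat2, which makes the same product with another protein fold, had higher values in both cold libraries in hormone-sensing cells, fibroblasts and macrophages, and lower ones in T cells. In hormone-sensing cells Dgat2 (chr7, 99153658 to 99182719, minus strand) had 198 and 146 CPM in cold, against 76.0 and 59.5 CPM at RT. The log2 fold change was 1.35 (SE 0.24), with an unadjusted p of 0.00186 and an edgeR adjusted p of 0.504 in a class where 1 gene of 12132 was called. DESeq2 on the same sums called it at 1.36 (adjusted p = 0.000457), where DESeq2 called 0.437% of all genes. The edgeR value was 1.66 without RT replicate 1 and 1.14 without RT replicate 2. In fibroblasts it had 5.96 and 3.82 CPM in cold, against 2.00 and 1.82 CPM at RT, a log2 fold change of 1.40 (SE 0.43, edgeR adjusted p = 0.147). In T cells it had 5.32 and 4.73 CPM in cold, against 6.70 and 6.31 CPM at RT. The plot of both acyltransferases shows Dgat2 highest in the cold hormone-sensing libraries and Dgat1 in neutrophils and innate lymphocytes.

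**Figure D4:**
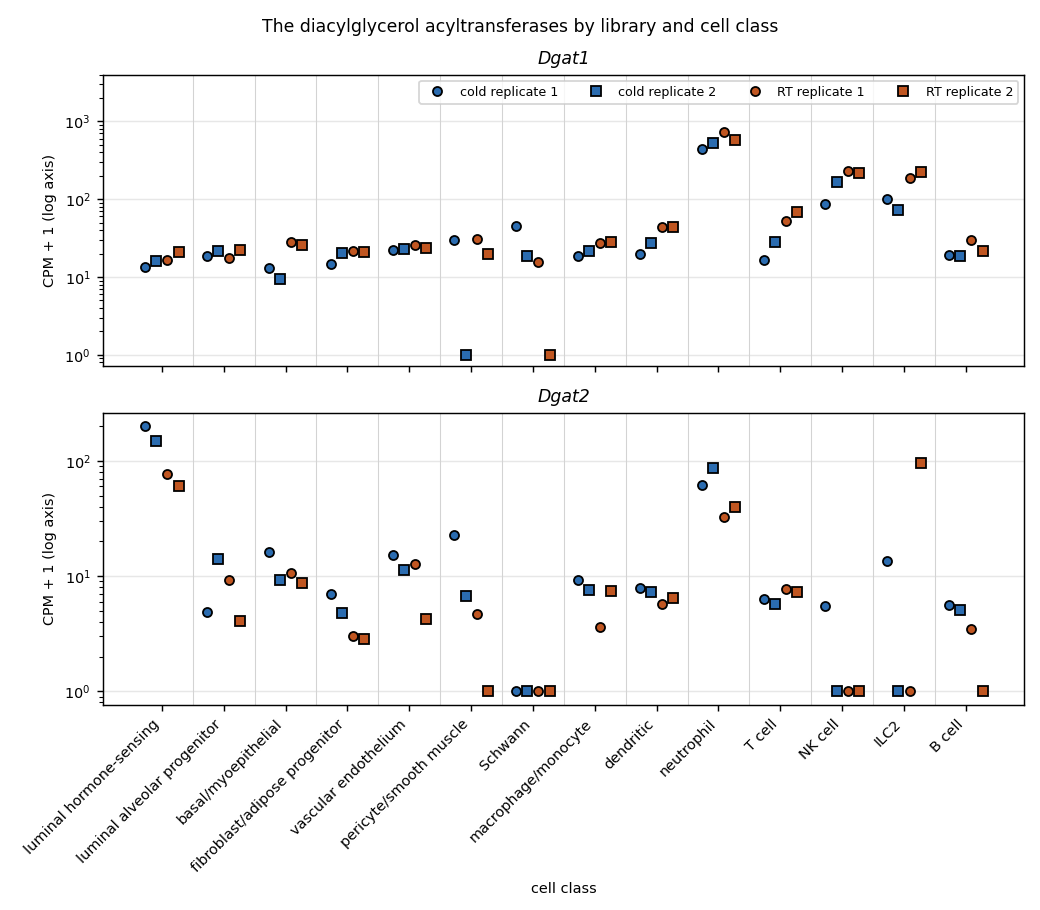
Dgat1 (upper) and Dgat2 (lower) in each library (blue, cold; orange, RT; circles, replicate 1; squares, replicate 2) across 14 cell classes, as CPM + 1 on a log axis. Cold T cell, ILC2 and NK cell libraries lie below the RT libraries for Dgat1, and cold hormone-sensing libraries lie above them for Dgat2.

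In fibroblasts and adipose progenitors, the cells from which new fat cells form, the sterol genes had lower values in cold but none was called. All 17 were tested: 14 had a log2 fold change below 0, the median was -0.68, against 0.00 over all genes of the class, and 49.7% of all genes were below 0. Both cold libraries lay below both RT libraries for 13 of 17, against 51.2% of all genes that did not overlap in either direction. edgeR called 0 of 17 and DESeq2 0 of 17, and 6 of 17 had an unadjusted p under 0.05, against 19.1% of all genes. The median ranged from -1.03 without RT replicate 1 to -0.26 without RT replicate 2. The size of this shift therefore depends on RT replicate 2, whose summed sterol level was 364 CPM, against 246 CPM in RT replicate 1 and 197 and 186 CPM in cold.

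By role, the largest difference was at squalene. Sqle (chr15, 59315077 to 59331192, plus strand) had 1.49 and 1.91 CPM in cold fibroblasts, against 5.58 and 9.89 CPM at RT, from 9 and 7 UMIs in cold and 67 and 38 at RT. Its log2 fold change was -2.10 (SE 0.44, edgeR adjusted p = 0.0618). Upstream of it, Hmgcs1 had 21.4 and 17.5 CPM in cold, against 29.4 and 51.8 CPM at RT (log2 fold change -0.94, adjusted p = 0.132). Idi1 had 4.64 and 4.64 CPM in cold, against 8.25 and 19.0 CPM at RT (-1.41, adjusted p = 0.145). Downstream, Cyp51 had 4.97 and 5.46 CPM in cold, against 10.3 and 16.4 CPM at RT (-1.26, adjusted p = 0.0765). All 4 had both cold libraries below both RT libraries.

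The regulators differed less than Sqle, Idi1 and Cyp51. Srebf2 had 20.5 and 23.7 CPM in cold fibroblasts, against 30.2 and 48.6 CPM at RT (log2 fold change -0.75, SE 0.22, edgeR adjusted p = 0.142). Insig1 had 29.5 and 25.7 CPM in cold, against 38.2 and 45.3 CPM at RT (-0.52, SE 0.15, adjusted p = 0.124). Neither pair of groups overlapped. Sc5d, which adds the C5 double bond of cholesterol's precursor, had 27.1 and 37.9 CPM in cold, against 38.4 and 43.2 CPM at RT (-0.30, SE 0.16, adjusted p = 0.368). The 3 members above 0 were Hsd17b7 at 0.38, Lss at 0.03 and Mvk at 0.02, each with overlapping libraries. Msmo1, Fdps, Fdft1, Dhcr7, Nsdhl, Stard4 and Mvd had log2 fold changes from -0.78 to -0.41 and edgeR adjusted p-values from 0.287 to 0.701.

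Among the fatty acid genes in fibroblasts the desaturases were lower, and Fads1 was called. Fads1 (chr19, 10182888 to 10196877, plus strand) had 33.6 and 42.3 CPM in cold, against 60.8 and 65.0 CPM at RT. The means were 38.0 ± 6.15 CPM in cold and 62.9 ± 2.99 CPM at RT (SD, n = 2 each), a log2 fold change of -0.70 (SE 0.13, edgeR adjusted p = 0.0473). It was not called with DESeq2, without cold replicate 1 or without the Cxcl13-led cluster. Scd2 (chr19, 44293674 to 44306864, plus strand) had 68.4 and 96.1 CPM in cold, against 145 and 213 CPM at RT. Its log2 fold change was -1.08 (SE 0.21) and its edgeR adjusted p was 0.0514, just past the threshold; it was called in 8 of 12 alternatives, DESeq2 among them (adjusted p = 0.000416). Scd1 (chr19, 44394455 to 44407879, minus strand) had 97.5 and 123 CPM in cold, against 135 and 158 CPM at RT (-0.37, SE 0.13, adjusted p = 0.205). None of the 3 overlapped between the groups.

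In all, 15 fatty acid members were tested in fibroblasts, 1 was called lower and 11 did not overlap between the groups, against 2.73% called and 51.2% without overlap among all genes. Of the 15, 13 had a log2 fold change below 0, against 49.7% of all genes, and the median was -0.30. At an unadjusted p under 0.05 stood 7 lower and 1 higher, against 19.1% of all genes in either direction. The genes of chain building had log2 fold changes of -0.72 for Fasn (edgeR adjusted p = 0.133), -0.28 for Acaca, -1.09 for Elovl6 (adjusted p = 0.128) and -0.21 for Elovl5. Fasn had 16.2 and 24.0 CPM in cold, against 28.9 and 39.3 CPM at RT, and Elovl6 8.94 and 7.92 CPM in cold, against 13.9 and 25.8 CPM at RT. The suppliers of substrate differed among themselves: Me1 had 14.4 and 18.8 CPM in cold, against 22.6 and 29.7 CPM at RT (-0.60). Acly overlapped, with 70.2 and 70.1 CPM in cold, against 65.8 and 88.7 CPM at RT (-0.07, SE 0.15, adjusted p = 0.829). Acss2 was at 0.11, also overlapping. Srebf1 had 30.6 and 34.7 CPM in cold, against 39.1 and 49.4 CPM at RT (-0.38, adjusted p = 0.214), and Agpat2 and Lpin1 overlapped at -0.19 and -0.18. Acacb, Mlxipl, Thrsp, Gpam and Fads2 were too low to test, each at most 2.08 CPM in any library.

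The fibroblast clusters were unevenly shared between the groups. The cluster led by Cxcl13 held 55.8 and 40.7% of cold fibroblasts, against 1.57 and 0.286% at RT. The cluster led by Igfbp6 and Pi16 held 16.9 and 33.0% in cold, against 45.9 and 54.3% at RT. Within the Igfbp6-led cluster the summed sterol level was 194 and 183 CPM in cold, against 229 and 351 CPM at RT. In the Col3a1-led cluster it was 243 and 244 CPM in cold, against 324 and 448 CPM at RT. Within the cluster led by Dcn and Serping1 the values were 176 and 156 CPM in cold, against 197 and 210 CPM at RT. In these 3 clusters both cold libraries lay below both RT libraries, while those of the Dcn and Inmt-led cluster overlapped, with 190 and 285 CPM in cold, against 271 and 292 CPM at RT. Without the Cxcl13-led cluster the sterol median was -0.63 over the 15 members then tested.

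Scd2 showed the same order in the clusters that both groups filled. It had 76.6 and 96.3 CPM in cold, against 156 and 264 CPM at RT, in the Igfbp6-led cluster. In the Col3a1-led cluster it had 51.4 and 60.4 CPM in cold, against 121 and 141 CPM at RT. It had 76.9 and 121 CPM in cold, against 149 and 167 CPM at RT, in the Serping1-led cluster, and 79.3 and 106 CPM in cold, against 157 and 233 CPM at RT, in the Inmt-led one. Fads1 did not overlap in the Igfbp6-led cluster, with 24.6 and 33.7 CPM in cold, against 55.7 and 67.6 CPM at RT. In the Serping1-led cluster it did, with 44.5 and 47.1 CPM in cold, against 61.5 and 42.9 CPM at RT, the last from 18 UMIs.

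**Figure D5:**
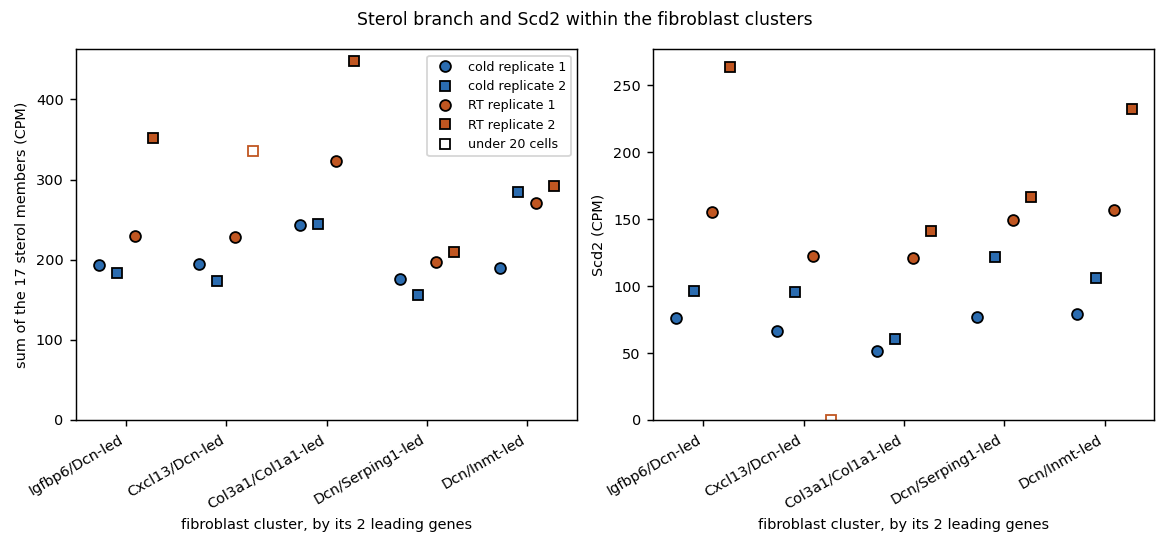
Summed sterol branch (left) and Scd2 (right) in CPM by library within the 5 fibroblast clusters, named by their 2 leading genes; blue, cold; orange, RT; an open symbol marks a library with under 20 cells in the cluster. Scd2 is lower in both cold libraries in the 4 clusters that each library fills, and the sterol sum in 3 of those 4.

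In luminal alveolar progenitors Fasn, the enzyme that builds palmitate, fell. Fasn (chr11, 120805846 to 120824547, minus strand) had 25.1 and 15.6 CPM in cold, against 41.6 and 62.4 CPM at RT, from 13 and 6 UMIs in cold and 15 and 81 at RT. The log2 fold change was -1.50 (SE 0.39, edgeR adjusted p = 0.0248), and both cold libraries lay below both RT libraries. The call held in 4 of 11 alternatives; it was lost with DESeq2, with doublets kept, with the looser cell filter, at resolution 2 and without cold replicate 1, cold replicate 2 or RT replicate 2. The cold cells of this class were shallower, with median UMIs per cell of 3383 and 4036 in cold, against 8616 and 11208 at RT, and the part of this in the result was not tested.

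Other alveolar members went both ways. Me1 had 102 and 67.7 CPM in cold, against 47.1 and 43.2 CPM at RT (log2 fold change 0.85, SE 0.31, edgeR adjusted p = 0.148), and Srebf1 116 and 156 CPM in cold, against 85.9 and 70.1 CPM at RT (0.73, SE 0.30, adjusted p = 0.218). Neither overlapped; 5 of 10 fatty acid members tested here did not, against 47.2% of all genes. Scd1 overlapped widely, with 356 and 198 CPM in cold, against 277 and 133 CPM at RT (0.38, SE 0.32, adjusted p = 0.627). In RT replicate 1, 1 cell held 44 of 100 Scd1 UMIs. The most in 1 cell was 29 of 173 in RT replicate 2, and 19 of 184 and 12 of 76 in cold. Fads1 had 112 and 135 CPM in cold, against 119 and 177 CPM at RT (-0.41, SE 0.28, adjusted p = 0.534), also overlapping. Acly and Scd2 were at -0.81 and -0.77, Acaca at -0.54, Agpat2 at 0.26 and Lpin1 at 0.12, with edgeR adjusted p-values from 0.214 to 0.907.

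Only 4 sterol members passed the filter in alveolar progenitors and 0 were called, also with DESeq2; 2 had an unadjusted p under 0.05, against 15.6% of all genes. Fdps had 13.5 and 26.0 CPM in cold, against 49.9 and 41.6 CPM at RT (log2 fold change -1.31, SE 0.43, edgeR adjusted p = 0.0946). Fdft1 had 7.73 and 20.8 CPM in cold, against 30.5 and 35.4 CPM at RT (-1.42, SE 0.49, adjusted p = 0.118). Sc5d had 46.4 and 36.5 CPM in cold, against 16.6 and 37.0 CPM at RT (0.35, SE 0.39, adjusted p = 0.738), and Srebf2 71.5 and 49.5 CPM in cold, against 47.1 and 52.4 CPM at RT (0.18, SE 0.31, adjusted p = 0.861). The first 2 did not overlap between the groups and the last 2 did.

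In luminal hormone-sensing cells, the estrogen- and prolactin-responsive cells of the ducts, the sterol genes differed little between the groups. Of 16 sterol members tested 0 were called, also with DESeq2, with 2 at an unadjusted p under 0.05, against 8.46% of all genes. The median was -0.03, against -0.02 over all genes, and 5 of 16 did not overlap, against 39.8% of all genes. In the Prlr-led cluster alone, the median was 0.15, with 3 of 15 members below 0. Sc5d had 63.9 and 60.3 CPM in cold, against 37.0 and 64.1 CPM at RT (log2 fold change 0.38, SE 0.22, edgeR adjusted p = 0.648). Srebf2 had 49.0 and 49.2 CPM in cold, against 45.1 and 62.4 CPM at RT (-0.07, SE 0.14, adjusted p = 0.884). Fdft1 had 38.7 and 38.3 CPM in cold, against 44.2 and 32.1 CPM at RT (0.00, SE 0.21, adjusted p = 0.999). The 2 with the unadjusted p were Msmo1, with 15.7 and 19.1 CPM in cold, against 8.87 and 12.5 CPM at RT (0.78), and Hmgcs1, with 14.5 and 15.6 CPM in cold, against 19.0 and 24.9 CPM at RT (-0.49). Sqle, highest of all classes here, overlapped at 0.09.

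Among 18 fatty acid members tested there, edgeR called 0 and DESeq2 1, Dgat2. Besides Dgat2, Gpam (1.04), Acly (-0.37) and Fads1 (-1.77) had an unadjusted p under 0.05. Acly had 59.4 and 55.9 CPM in cold, against 68.5 and 84.4 CPM at RT (SE 0.12, edgeR adjusted p = 0.560). Scd2 had 53.3 and 51.1 CPM in cold, against 39.0 and 172 CPM at RT (log2 fold change -0.90, SE 0.59, adjusted p = 0.685). The 2 RT libraries thus enclosed the cold ones. The sign turned to 0.38 without RT replicate 2, while without RT replicate 1 the value was -1.60. The Prlr-led cluster held 93.9 and 78.0% of the class in cold, against 38.6 and 76.2% at RT, where the Upk3a-led cluster held 61.4% of RT replicate 1. Within the Prlr-led cluster Dgat2 had 205 and 165 CPM in cold, against 74.0 and 53.6 CPM at RT. Within the Upk3a-led cluster it had 126 and 75.0 CPM in cold, against 77.4 and 71.8 CPM at RT, which overlap.

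A further 857 luminal cells lay in deep clusters with both luminal marker sets and were kept out of the classes. Summed alone, these had 148 and 116 CPM of Dgat2 in cold, against 51.2 and 40.7 CPM at RT, a log2 fold change of 1.56 (SE 0.24). edgeR gave an adjusted p of 0.474 in a set where 0% of genes were called. DESeq2 called Dgat2, where DESeq2 called 0.942% of all genes. Fasn had 25.1 and 25.6 CPM in cold, against 38.5 and 51.4 CPM at RT (-0.77, SE 0.16, edgeR adjusted p = 0.474), and Fads1 21.7 and 19.1 CPM in cold, against 27 and 80.7 CPM at RT (-1.31). These cells may hold doublets of both luminal types, which was not tested.

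For 4 pairs of classes it was tested whether the cold effect differed, with the library as a block. Me1 was the 1 member called: its effect in alveolar progenitors minus that in fibroblasts was 1.51 (SE 0.41, edgeR adjusted p = 0.0192), among 33 members tested and against 1.54% of all genes. At an unadjusted p under 0.05 stood 6 of the 33, against 9.45% of all genes. The low-count filter was set on the pair of classes. In alveolar progenitors alone only 4 sterol and 10 fatty acid members passed it, so several of the 33 had low counts there. The value was 1.02 without cold replicate 1 and 1.24 without RT replicate 2, and was then not called. Between hormone-sensing cells and fibroblasts 0 of 36 members were called, against 0.0521% of all genes, with 7 at an unadjusted p under 0.05, against 9.88% of all genes. The largest of the 7 was Sqle at 2.23 (SE 0.36, edgeR adjusted p = 0.0702), followed by Idi1 at 1.57, Msmo1 at 1.49, Cyp51 at 1.19, Srebf1 at 0.79, Sc5d at 0.73 and Srebf2 at 0.68. Each of these 7 was more negative in fibroblasts. The sterol members Stard4 (-2.10), Insig1 (-0.25) and Mvk (-0.15) had differences of the other sign, with unadjusted p-values from 0.0974 to 0.667.

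Between macrophages and fibroblasts 0 of 34 members were called, against 0.579% of all genes, with 6 at an unadjusted p under 0.05, against 12.7% of all genes, led by Sqle at 2.23 (SE 0.59, edgeR adjusted p = 0.148). Between hormone-sensing and alveolar cells 0 of 32 were called, against 0.682% of all genes, with 7 at an unadjusted p under 0.05, against 8.43% of all genes. The 7 were Stard4 at -4.03 (SE 1.41), Fads1 at -1.46, Me1 at -1.25, Fasn at 0.95, Fdps at 1.28, Idi1 at 1.38 and Fdft1 at 1.58. Because the low-count filter was set on the pair of classes, a member could pass it without passing in each class alone. Stard4 and Idi1 did not pass in alveolar cells alone, so their values rest on low counts there. These 4 pairs share libraries and in part classes, so they are not separate tests of the same gene.

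In the myeloid classes no member was called by edgeR or DESeq2. In dendritic cells, 15 sterol members were tested and 14 were below 0, against 49.8% of all genes, at a sterol median of -0.56. The groups did not overlap for 9 of 15, against 40% of all genes. The median was -0.24 without RT replicate 2 and -0.86 without RT replicate 1. Unadjusted p-values under 0.05 were found for 2 sterol and 3 fatty acid members, against 9.3% of all genes. Msmo1 had 13.6 and 5.27 CPM in cold, against 17.6 and 33.0 CPM at RT (-1.48, edgeR adjusted p = 0.418), and Sqle 5.45 and 5.27 CPM in cold, against 9.41 and 18.2 CPM at RT (-1.35, adjusted p = 0.489). Scd2 had 1.36 and 8.44 CPM in cold, against 20.6 and 21.5 CPM at RT (-1.96, adjusted p = 0.276). In macrophages all 17 sterol members were tested, with a median of -0.06 and 5 non-overlapping, against 43.6% of all genes. With 1 library left out that median ranged from -0.28 (without cold replicate 1) to 0.19 (without RT replicate 2). Hmgcs1 had 14.8 and 11.9 CPM in cold macrophages, against 18.7 and 25.3 CPM at RT (-0.70, adjusted p = 0.310), and Stard4 6.30 and 4.34 CPM in cold, against 7.42 and 14.5 CPM at RT (-0.98, adjusted p = 0.404). These were 2 of 3 members at an unadjusted p under 0.05 there, with Dgat1, against 11.7% of all genes.

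In B cells 8 sterol members were tested and 8 were below 0, against 48.8% of all genes. There was no call by edgeR or DESeq2, and 3 unadjusted p-values were under 0.05, against 7.8% of all genes. Idi1 had 3.05 and 8.09 CPM in cold B cells, against 22.9 and 26.3 CPM at RT (-2.01, SE 0.52, edgeR adjusted p = 0.273). Srebf2 had 45.8 and 60.6 CPM in cold, against 104 and 75.3 CPM at RT (-0.73, adjusted p = 0.421), and Cyp51 7.63 and 9.43 CPM in cold, against 19.6 and 20.7 CPM at RT (-1.16, adjusted p = 0.586). Of the 8 tested, 4 did not overlap between the groups, these 3 among them, against 35.9% of all genes. Scd1, highest in these cells, had a log2 fold change of -0.22 (SE 0.22, adjusted p = 0.888). In NK cells 2 sterol and 8 fatty acid members were tested and in ILC2 0 and 2, with no call by edgeR or DESeq2. Dgat1 was the member with an unadjusted p under 0.05 in each, against 12.5% of all genes in NK cells and 10.4% in ILC2. The groups did not overlap for 7 of these 10 members in NK cells, against 43.3% of all genes, and for 2 of 2 in ILC2, against 40.4%.

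In vascular endothelium 12 sterol and 17 fatty acid members were tested and none was called by edgeR or DESeq2, with 2 unadjusted p-values under 0.05, against 12.1% of all genes. Stard4, highest in this class, had 39.9 and 32.0 CPM in cold, against 57.6 and 64.5 CPM at RT (log2 fold change -0.72, SE 0.20, edgeR adjusted p = 0.195), with no overlap. Agpat2 had 34.6 and 27.7 CPM in cold, against 21.6 and 11 CPM at RT (1.03, SE 0.36, adjusted p = 0.311). Scd1, Me1 and Fasn were lowest in RT replicate 2, with 19.3, 14.2 and 18.1 CPM, against 39.0 to 97.6, 34.6 to 51.0 and 43.4 to 60.3 CPM in the other 3 libraries. The 7 adipocyte markers other than Lipe and Plin4 moved with them, summing to 128 and 200 CPM in cold, against 274 and 21.3 CPM at RT, and 0 of 7 were at 0 over the class; their part in the result was not tested. Thrsp had a log2 fold change of -0.01 (SE 0.19).

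In ILC2 and pericytes single cells carried the lipogenic counts. In ILC2 of RT replicate 2, 1 cell held 45 of 45 Thrsp, 20 of 20 Scd1 and 14 of 14 Me1 UMIs, and with them 81 of 81 adipocyte marker UMIs of that library's class. In pericytes of cold replicate 1, 1 cell held 28 of 29 Thrsp and 41 of 42 Scd1 UMIs and 207 of 254 adipocyte marker UMIs. In pericytes 3 members passed the filter and 0 were called by edgeR or DESeq2; 1 had an unadjusted p under 0.05, against 6.64% of all genes. That was Lpin1, with 50.7 and 51.4 CPM in cold, against 14.8 and 25.1 CPM at RT (1.46, edgeR adjusted p = 0.693).

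Other genes of lipid metabolism, in 4 lists outside the 37, gave few calls in the same tests. Of 18 other genes of sterol synthesis, uptake and SREBP control, edgeR called 0 in any class and DESeq2 1; unadjusted p-values under 0.05 numbered 0 to 2 per class. Of 24 other genes of fatty acid elongation, activation and glyceride synthesis, 1 was called: Acsl3, an acyl-CoA synthetase, had 5.66 and 7.73 CPM in cold T cells, against 22.5 and 17.4 CPM at RT (-1.65, adjusted p = 0.0124). Of 9 genes of sterol efflux and LXR targets, Apoe fell in dendritic cells, with 51.8 and 46.4 CPM in cold, against 189 and 207 CPM at RT (-2.01, adjusted p = 0.00930). In alveolar progenitors Nr1h2 (LXR beta, 1.14) and Mylip (a ubiquitin ligase induced by LXR, 1.09) rose, with adjusted p-values of 0.0450 and 0.0462.

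Of 10 genes of lipid droplet breakdown and uptake, 6 of 80 pairs of gene and class tested were called, 3 of them in alveolar progenitors, where 3.42% of all genes were called. Pnpla2, the first lipase of triglyceride breakdown, rose in fibroblasts, with 43.0 and 41.5 CPM in cold, against 22.2 and 19.3 CPM at RT (1.05, edgeR adjusted p = 0.0242). Hilpda, an inhibitor of that lipase, rose in NK cells, with 264 and 288 CPM in cold, against 131 and 123 CPM at RT (1.16, adjusted p = 0.00203). Mgll, the monoglyceride lipase, rose in alveolar progenitors, with 90.9 and 141 CPM in cold, against 38.8 and 27.7 CPM at RT (1.78, adjusted p = 0.00144). Of the fatty acid binding proteins, Fabp4 rose in macrophages, with 146 and 157 CPM in cold, against 64.1 and 73.6 CPM at RT (1.13, adjusted p = 0.0311). In alveolar progenitors Fabp4 had 203 and 44.3 CPM in cold, against 22.2 and 20.8 CPM at RT (2.48), and Fabp5 3.87 and 31.3 CPM in cold, against 108 and 108 CPM at RT (-2.86). Both were called there, in the class whose cold cells were shallower, and all of these groups were without overlap. DESeq2 also called Pnpla2 in fibroblasts, Hilpda in NK cells, Fabp4 in macrophages and Apoe in dendritic cells, but none of the 5 genes in alveolar progenitors, and it gave no adjusted p for Acsl3. Apoe went the other way from dendritic cells in 2 classes where DESeq2 alone called it, at 0.70 in fibroblasts (adjusted p = 0.0189) and 0.74 in macrophages (adjusted p = 0.000547). DESeq2 alone also called Fabp4 in fibroblasts (0.85), Hilpda in ILC2 (1.09) and the lipase Lpl in macrophages (-0.87).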

How the data were processed

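Raw UMI counts per gene and barcode were deposited by the authors, made with Cell Ranger 3.0.2 on mm10/GRCm38 per the submitters' processing notes, which also name Seurat; which gene annotation was used is not stated in those sources. Barcodes in the files held at least 500 UMIs. Filters asked for 500 genes or more and mitochondrial UMIs under 15% per cell, and the cells with the highest doublet scores were removed (0.8% per 1000 cells), leaving 3929 and 2971 cells in cold and 5232 and 3065 at RT. Leiden clustering at resolution 1 (2000 variable genes, 30 components, 15 neighbours; leidenalg 0.10.2) was named from marker genes: at least 3 had to stand out, and 1486 cells whose clusters were mixed or unnamed stayed out of the classes, 8.63 and 12.4% in cold and 7.99 and 11.8% at RT. UMIs were summed per class and library and tested with edgeR 4.0.16 (TMM, filterByExpr, two-sided quasi-likelihood test, Benjamini-Hochberg over all genes of a class), a procedure tested on simulated data. Differences between classes were interaction terms, with each library a block.

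The members, gene lists and tests were chosen with earlier results of these data known. Each member is given by value or range. Given with all values are members called in a class (at most 6 per branch and class) and the 3 highest of each branch in the hormone-sensing, alveolar and fibroblast classes; other members named were picked after their values were seen. Alternatives were RLE scaling, DESeq2 1.42.0, a replicate block, resolution 2, no low-count filter, a looser cell filter (200 genes, 25% mitochondrial), doublets kept and each library left out. Leaving out a cluster, the Prlr-led cluster alone and the test of the luminal cells with both marker sets were added after seeing the data. Positions are from GENCODE on GRCm38 and promoters from RefSeq; the annotation of the counts may differ from both. The gene that DESeq2 called in the list of other sterol genes is not reported here.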

Additional observations from a re-analysis of the deposited data

Results flagged for a closer look

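The cold effect on Me1, malic enzyme, differed between luminal alveolar progenitors and fibroblasts by a test of the difference itself, at 1.51 on the log2 scale (SE 0.41, edgeR adjusted p = 0.0192). Me1 had 102 and 67.7 CPM in cold alveolar progenitors, against 47.1 and 43.2 CPM at RT, and 14.4 and 18.8 CPM in cold fibroblasts, against 22.6 and 29.7 CPM at RT. In neither class alone was Me1 called. The difference ranged from 1.02 to 1.86 with 1 library left out and was called without cold replicate 2 and without RT replicate 1.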

How the results depend on the processing

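Counts of called members were small, and 1 library or the low-count filter moved several of them. The share of all genes called moved under the same settings, and the cause was not tested. Among the sterol members, the replicate block gave 1 in B cells, 4 in T cells and 5 in fibroblasts. In these classes it called 1.42, 14.5 and 10.1% of all genes. No low-count filter gave 1 in B cells, 2 in T cells, 2 in dendritic cells, 8 in fibroblasts, 2 in macrophages and 1 in endothelium. The shares of all genes, in that order, were 0.708, 5.66, 1.87, 8.02, 3.63 and 3.49%. In T cells DESeq2, resolution 2 and leaving out the Ccl5-led cluster gave 0, against 1.84, 2.21 and 11% of all genes. DESeq2 gave no adjusted p for Cyp51. With 1 library left out the sterol count ranged from 0 to 2 in T cells, 0 to 1 in dendritic cells, 0 to 7 in fibroblasts, 0 to 1 in alveolar progenitors and 0 to 2 in hormone-sensing cells.

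Among the fatty acid members, the replicate block gave 6 in fibroblasts, against 10.1% of all genes. No low-count filter gave 3 in ILC2, 1 in dendritic cells, 6 in fibroblasts, 2 in pericytes and 1 in endothelium. The shares of all genes, in that order, were 0.636, 1.87, 8.02, 0.637 and 3.49%. DESeq2 gave 1 in T cells, 0 in alveolar progenitors, 1 in hormone-sensing cells and 1 in the luminal cells with both marker sets. Of all genes it called 1.84, 0.936, 0.437 and 0.942% there. Doublets kept and the looser cell filter each gave 2 in fibroblasts and 0 in alveolar progenitors. Of all genes they called 2.58 and 2.93% in fibroblasts and 1.86 and 1.93% in alveolar progenitors. Resolution 2 gave 0 in alveolar progenitors, against 0.761% of all genes. Leaving out the Cxcl13-led cluster gave 0 in fibroblasts, against 0.238% of all genes. The calls in ILC2 and pericytes without the low-count filter were Thrsp, Scd1 and Me1, which rested on the single cells described above. Counts from the fits with 1 library left out are again not compared, also for differences between classes.

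Of 268 recomputed values for the named members, 221 kept direction and side of the threshold, 17 passed it newly, 16 lost it and 14 changed sign, none of the last called. Fdft1 in hormone-sensing cells turned to 0.039 with the replicate block, 0.012 with DESeq2, 0.018 without the filter, 0.0071 with doublets kept and 0.23 in the Prlr-led cluster alone, and ranged from -0.24 to 0.38 with 1 library left out. There Srebf2 turned to 0.033 in the Prlr-led cluster and ranged from -0.23 (without RT replicate 1) to 0.082 (without RT replicate 2), and Scd2 ranged from -1.60 to 0.38 over the same exclusions. In alveolar progenitors Scd1 ranged from -0.13 (without RT replicate 2) to 0.98 (without RT replicate 1), and turned to -0.084 without cold replicate 1. Srebf2 ranged there from -0.096 (without cold replicate 1) to 0.37 (without cold replicate 2). Acly in fibroblasts ranged from -0.25 (without RT replicate 1) to 0.11 (without RT replicate 2).

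The labels do not say that replicate numbers pair the libraries. Same-numbered libraries deviated together weakly, with correlations from -0.10 to 0.35 over classes. A lone library of a group is assumed to vary like the others. Under 100 UMIs stood behind most sterol values in Schwann cells, neutrophils and alveolar progenitors, which limits what could be detected there.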
